A study of Mus musculus with 24 samples.

Results

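Both strands of miR-126a, known from endothelial cells, and the smooth muscle pair miR-143-3p and miR-145a-5p were followed through serum exosomes of mice dosed with toosendanin (TSN). The 4 miRNAs were chosen by name (mmu-miR-126a-3p, mmu-miR-126a-5p, mmu-miR-143-3p and mmu-miR-145a-5p) from the 1881 on the array. All 4 were among the 441 miRNAs tested, meaning those that read well above background throughout at least 1 group of 4 arrays. TSN is a plant triterpenoid toxic to the liver. By its title, the series concerns liver injury by drugs, liver regeneration and the targeting of vimentin by miR-106b-5p.

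RNA labelled with Cy3 was read on 24 one-colour arrays, with 4 arrays in each of 6 groups. The dosed mice received TSN at 80 mg/kg for 3, 9 or 21 days, and the control mice received vehicle for 3, 9 or 21 days. All were male BALB/c mice, bled 24 hours after the last dose. No age is given, and no step that isolates exosomes is described in the labels' protocols. Whether each serum sample came from 1 mouse or several is not given, so the spread behind the p-values may be technical.

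In mammals, miR-126 is cut from an intron of Egfl7, a gene of endothelial cells, and is known for its part in vessel integrity and growth factor signalling in endothelium. Platelets and other blood cells carry it as well. miR-143 and miR-145 are cut from a common primary transcript and are known for holding vascular smooth muscle in its contractile state. A miRNA finds its targets mainly by pairing through its seed, bases 2 to 8, and the array probes are short DNA oligos complementary to a mature strand.

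The sequences below show which strand each miR-126a probe reads and what lies opposite it. Of the 4 members, 1 matched a mature entry by name in the RefSeq table (GRCm38.p6). In the mature sequences, capitals mark the seed. miR-126a-3p lies at chr2:26591402-26591423 on the plus strand.
mmu-miR-126a-3p: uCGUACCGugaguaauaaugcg
Mir126a hairpin: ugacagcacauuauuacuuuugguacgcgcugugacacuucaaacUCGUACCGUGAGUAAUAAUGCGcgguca
probe for miR-126a-3p: cgcattattactcacggta
probe for miR-126a-5p: cgcgtaccaaaagtaataatg
mmu-miR-126b-5p: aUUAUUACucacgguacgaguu
mmu-miR-126b-3p: cGCGUACCaaaaguaauaaugug

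In the hairpin (chr2:26591357-26591429, plus strand) the capitals mark the mature 3p strand, which spans hairpin bases 46 to 67. The 3p probe is 19 bases long and is complementary to bases 4 to 22 of the mature strand. The 5p probe is complementary to hairpin bases 9 to 29 (chr2:26591365-26591385). That stretch, with no capitals, reads as follows.
hairpin stretch read by the 5p probe: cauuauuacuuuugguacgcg

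The minus strand of the same place holds Mir126b. miR-126b-5p (chr2:26591399-26591420) lies opposite miR-126a-3p over 19 bases, and miR-126b-3p (chr2:26591363-26591385) covers all 21 bases of the 5p stretch. The probes are complementary to the plus strand products, and neither miR-126b entry was well above background on any array. No other mature miRNA of the 1679 names in the table carried the seed of miR-126a-3p.

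Brightness separated the arms before any miRNA was compared. The 75th percentile of the signal lay between 737 and 1748 intensity units on TSN arrays and between 73.5 and 609 on control arrays. Labelling spike-ins read 1076 to 1637 units on TSN arrays and 205 to 742 on control arrays, and 378 to 467 miRNAs were well above background on TSN arrays, against 183 to 351 on control arrays. Each of the 4 slides held 1 arm only, and slide and arm therefore cannot be told apart. Levels below are scaled log2 signals, the log2 of a probe's signal over its array's 75th percentile among the 261 probes that every array read well above background. Lower values were set to -6.21, the floor of that scale, and values at the floor have no order. In a serum sample, fewer vesicles of a cell type and less RNA per vesicle cannot be told apart. The red cell marker miR-451a was well above background on all 24 arrays.

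**Figure D1:**
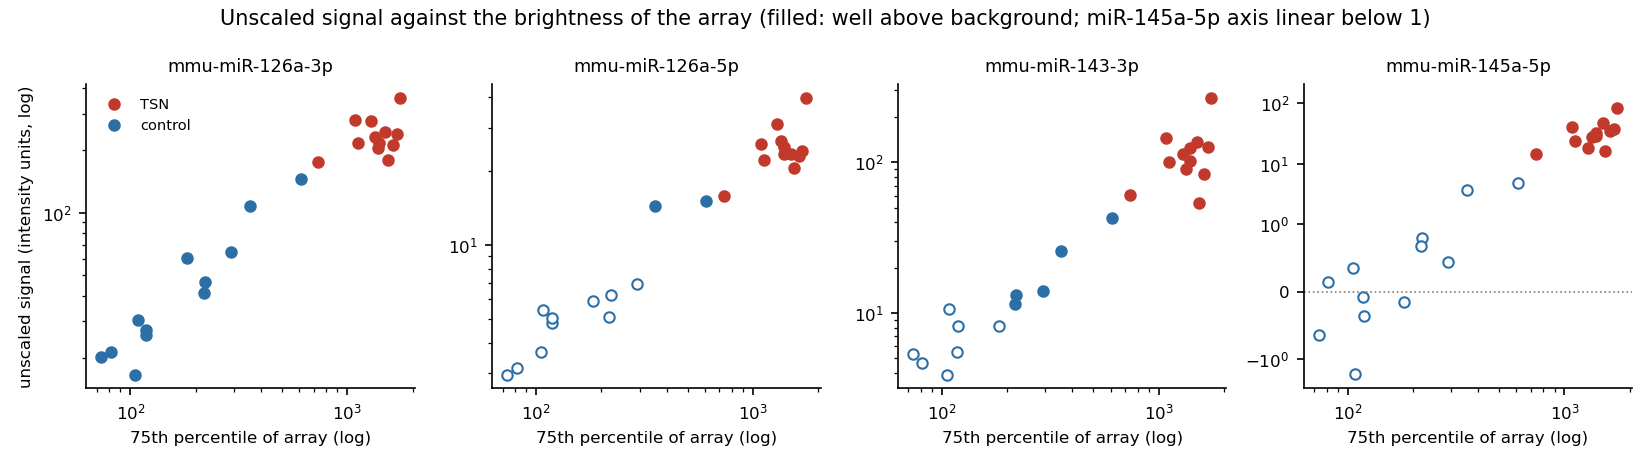
Unscaled signal of each miRNA (intensity units, log axis, for miR-145a-5p linear below 1) against the 75th percentile of its array (log axis), 1 point per array, with TSN in red and control in blue. Filled points were well above background; every TSN array was brighter than every control array, and open points fall among control arrays only.

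Detection differed between the members. miR-126a-3p was well above background on all 24 arrays. miR-126a-5p was so on all 12 TSN arrays, against 0, 0 and 2 of 4 control arrays at days 3, 9 and 21. miR-143-3p was well above background on all 12 TSN arrays, against 2, 1 and 2 of 4 control arrays at the same days. miR-145a-5p was well above background on all 12 TSN arrays and on 0 control arrays. The share of miR-145a-5p spots well above background averaged 96.7% in TSN serum at day 3 and 100% at days 9 and 21, against 0% in every control group (two-sided exact permutation test, p = 0.0286, which is as small as 4 against 4 arrays allow, and 0.0429 after adjustment over 9 tests). The same adjusted p was reached by miR-126a-5p at days 3 and 9 and by miR-143-3p at day 9. The lowest scaled signal that was well above background ranged over arrays from -7.34 to -6.19 in TSN and from -6.22 to -3.22 in control, so most control arrays could not read the lowest levels that TSN arrays could, and the 2 ranges overlapped at their ends. The part of brightness in these detection differences was not tested.

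**Figure D2:**
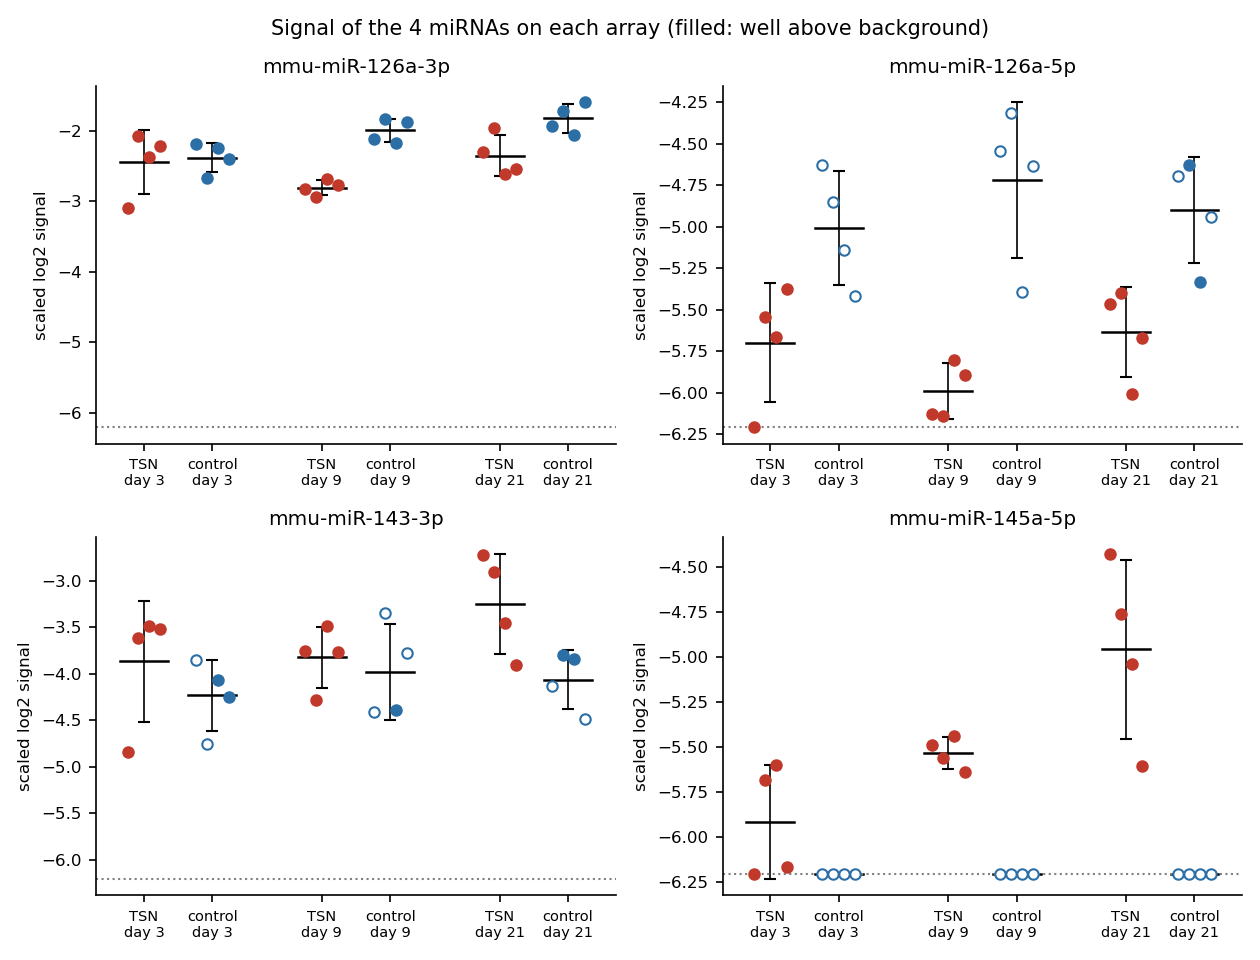
Scaled log2 signal on each array, 1 panel per miRNA, with TSN in red and control in blue at days 3, 9 and 21. Filled points were well above background, black bars give the mean and SD of 4 arrays, and the dotted line is the floor at -6.21; miR-126a-3p is lower in TSN at day 9 without overlap, and every control value of miR-145a-5p lies at the floor.

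miR-126a-3p, the strand best known from endothelium, was lower in TSN serum at days 9 and 21 and did not differ beyond its error at day 3. At day 3 the scaled log2 signals were -3.10, -2.07, -2.37 and -2.21 on the TSN arrays and -2.19, -2.66, -2.25 and -2.40 on the control arrays. The groups overlapped, with the lowest and the highest of the 8 values both on TSN arrays. Means were -2.44 ± 0.456 in TSN and -2.38 ± 0.212 in control (SD, n = 4 each), a change of -0.06 (SE 0.184, limma adjusted p = 0.855). All changes here and below are log2 differences of TSN minus control, or of the later minus the earlier day.

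At day 9 the miR-126a-3p signals were -2.82, -2.94, -2.69 and -2.77 on TSN arrays, against -2.11, -1.83, -2.16 and -1.87 on control arrays. Every TSN array lay below every control array. The change was -0.81 (SE 0.184, limma adjusted p = 0.000775), a ratio of 0.570. At day 21 the signals were -2.29, -1.95, -2.61 and -2.53 on TSN arrays, against -1.92, -1.71, -2.06 and -1.59 on control arrays, so that 3 of 4 TSN arrays lay below all 4 control arrays and 1 did not. That change was -0.53 (SE 0.184, limma adjusted p = 0.0252), a ratio of 0.694, and it missed the threshold without TSN replicate 3 or 4 or without control replicate 2 or 4 (changes of -0.44, -0.46, -0.49 and -0.45, limma adjusted p of 0.0863, 0.0764, 0.0610 and 0.0816).

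A second probe for the same strand, 1 base shorter, was also well above background on all arrays. It gave changes of 0.11, -0.72 and -0.36 at days 3, 9 and 21. Spots of the main probe varied little within an array, with a median coefficient of variation of 5.39% over 13 to 15 spots.

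The direction of miR-126a-3p was relative to the other miRNAs of its array. Unscaled, it was brighter in TSN serum by 2.79, 2.75 and 2.03 at days 3, 9 and 21, while the median over the 441 tested miRNAs was brighter by 2.20, 2.42 and 2.07. Scaling to the labelling spike-ins turned the day 9 change to 0.93. That is -0.29 relative to the shift of the median miRNA (1.22), meaning the move of its change away from the main scale. Without scaling, the day 9 value relative to the shift on that setting (2.45) was 0.30. Signals were floored on that setting too, and 152 of the 441 tested miRNAs were measured on every array. The shift of the median can therefore include floored values, and 0.30 does not show that miR-126a-3p rose against the median miRNA. In the authors' deposited log2 values the day 9 change was -0.49 and passed the threshold. On the 75th percentile over all probes the day 9 change was 0.58, on a scale where the median change of all tested miRNAs was 0.77. The lower level at day 9 is thus relative to the 75th percentile of the 261 always-measured probes, and the sign of the change differed between scales.

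miR-126a-5p, the strand cut from the other arm of the hairpin, was set against control arrays that mostly could not measure it, so its direction rests on day 21, where 2 control arrays did. At day 3 the signals were -6.21, -5.54, -5.66 and -5.38 on TSN arrays, against -4.63, -4.85, -5.14 and -5.42 on control arrays. At day 9 they were -6.13, -6.14, -5.80 and -5.89 on TSN arrays, against -4.54, -4.31, -5.39 and -4.63 on control arrays. At day 3, 3 of 4 TSN arrays lay below all control arrays and at day 9 all 4 did, but none of those 8 control values was well above background. At day 21 the signals were -5.47, -5.40, -6.00 and -5.67 on TSN arrays, against -4.69, -4.63, -5.33 and -4.94 on control arrays, and the 2 control arrays that measured it (-4.63 and -5.33) lay above all 4 TSN arrays.

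The change of miR-126a-5p was -0.69 at day 3, -1.27 at day 9 and -0.73 at day 21 (SE 0.230 each), with limma adjusted p of 0.0179, 9.11e-05 and 0.0142 in that order of days. At days 3 and 9 neither the size nor the direction was measured, because the control level is bounded from above only. A second probe was well above background on 1 TSN array of day 21 and on no other array. In unscaled units the signal of the main probe was 15.8 to 39.5 on TSN arrays and 3.0 to 15.1 on control arrays. After a floor was set on unscaled signals too, the log2 changes at days 3, 9 and 21 were 1.17, 1.31 and 1.24. They are not differences of the signals just given, since dim control values were raised to that floor. In the authors' deposited log2 values the changes at days 3, 9 and 21 were 0.03, 0.04 and -0.13, and none passed. On that scale the median over all tested miRNAs changed by 0.29, 0.33 and 0.16. Without TSN replicate 1 or control replicate 1 the day 3 change was -0.52 or -0.56 (limma adjusted p = 0.0796 or 0.0693), and without TSN replicate 3 the day 21 change was -0.61 (limma adjusted p = 0.0549).

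miR-143-3p, the smooth muscle miRNA that some control arrays could read, was higher in TSN at day 21 by a margin close to the threshold. At day 3 the signals were -4.84, -3.61, -3.49 and -3.52 on TSN arrays, against -3.85, -4.76, -4.07 and -4.25 on control arrays. At day 9 they were -3.75, -4.28, -3.48 and -3.77 on TSN arrays, against -4.41, -3.34, -4.39 and -3.77 on control arrays. The groups overlapped at both days, and at day 3 the first TSN array lay below all others. At day 21 the signals were -2.72, -2.90, -3.46 and -3.90 on TSN arrays, against -4.13, -3.80, -3.84 and -4.49 on control arrays.

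At day 21, 3 of 4 TSN arrays lay above all 4 control arrays, including the 2 control arrays that measured miR-143-3p. The change was 0.37 at day 3, 0.16 at day 9 and 0.82 at day 21 (SE 0.324 each), with limma adjusted p of 0.382, 0.718 and 0.0462 in that order, and the day 21 ratio was 1.76. A second probe gave 0.57, 0.34 and 0.89. The day 21 change missed the threshold without TSN replicate 1, 2 or 3 or control replicate 1 or 4, where changes were 0.64 to 0.89 and limma adjusted p ranged from 0.0565 to 0.153. The first TSN array of day 3 also had the lowest miR-126a-3p value of the 8 arrays of that day, and without it the day 3 change of miR-143-3p was 0.69 (limma adjusted p = 0.0668).

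miR-145a-5p, its partner on the same primary transcript, was well above background in TSN serum only. The signals on TSN arrays were -6.21, -5.68, -5.60 and -6.17 at day 3. They were -5.49, -5.56, -5.44 and -5.64 at day 9, and -4.42, -4.76, -5.04 and -5.60 at day 21. All 12 control arrays were at the floor of -6.21, with unscaled signals between -1.71 and 4.80 units, against 14.3 to 81.4 units on TSN arrays.

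The change of miR-145a-5p was 0.29 at day 3, 0.67 at day 9 and 1.25 at day 21 (SE 0.169 each), with limma adjusted p of 0.177, 0.00188 and 6.08e-06 in that order. These are differences from the floor and not measured sizes. A second probe gave 0.48 at day 21 and group means at the floor at days 3 and 9. No fold is given, because the lowest level that control arrays could read was on average above the TSN level at each day. With the normexp background correction, here with an offset of 50 added to every probe, both smooth muscle miRNAs turned lower in TSN at all 3 days (-1.31, -1.67 and -0.84 for miR-143-3p, and -1.55, -1.70 and -1.16 for miR-145a-5p). The median change of all tested miRNAs on that setting was -1.51, -1.74 and -1.17.

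Of the 4 members, 1 passed the test at day 3 (miR-126a-5p), against 47.8% of the 441 tested miRNAs called in either direction, and no control array measured it. At day 9, 3 of 4 passed, against 62.1% of all tested, but only miR-126a-3p (lower) had measured control arrays, and miR-126a-5p and miR-145a-5p did not. At day 21 all 4 passed, against 44.9% of all tested. There miR-126a-3p was lower with 4 of 4 control arrays measured, and miR-126a-5p was lower and miR-143-3p higher with 2 of 4. The fourth, miR-145a-5p, lay above the floor that stood for its controls. Leaving out single arrays lost the day 21 calls of miR-126a-3p, miR-143-3p and miR-126a-5p for 4, 5 and 1 of 8 arrays. Groups did not overlap for 0 of 4 members at day 3 (40.6% of all tested), for 3 of 4 at day 9 (51.9%) and for 2 of 4 at day 21 (38.8%). With shares of this size among all miRNAs, a called member is common on these arrays.

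**Figure D3:**
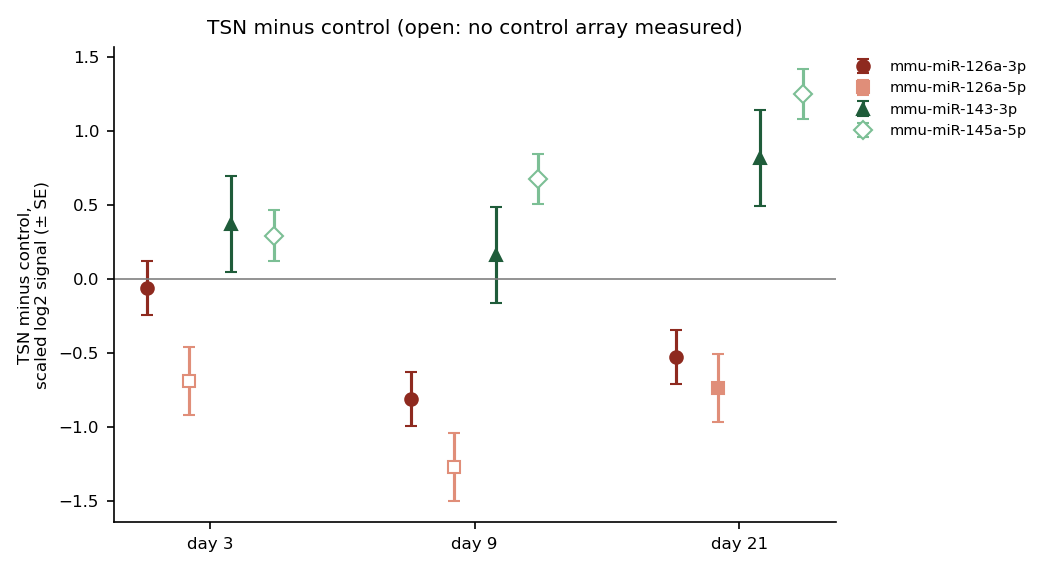
Change of each miRNA, TSN minus control in scaled log2 signal, at days 3, 9 and 21, with SE bars from the limma fit. Open symbols mark comparisons with no measured control array; both miR-126a strands lie at or below 0, and both smooth muscle miRNAs above it, at each day.

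The change of the effect between days was tested as an interaction. For miR-126a-3p the TSN effect at day 9 was below that at day 3 by -0.75 (SE 0.260, limma adjusted p = 0.0494), the 1 call among 4 members where 19.0% of tested miRNAs passed. Leaving out single arrays lost the call for 12 of the 16 arrays, 3 of 4 in each of the 4 groups (limma adjusted p up to 0.101). It was also lost on 10 of 13 other settings, among them the replicate block (limma adjusted p = 0.106), quantile normalization (-0.50), labelling spike-ins (-0.12) and no scaling (-0.0416). For miR-145a-5p the day 21 minus day 3 term was 0.96 (SE 0.240, limma adjusted p = 0.0143), 1 of 4 members where 13.4% passed. With every control value at the floor this term is the TSN day 21 minus day 3 difference over again, and a change of the effect against control was not measured. The call held without each of the 16 arrays and was lost on 5 of 12 other settings, at 0.26 in the authors' values, 0.39 with normexp, 0.85 at 0.5 of the floor, 1.06 on labelling spike-ins and 1.09 with total gene signal. The effect of miR-126a-3p at day 21 against day 3 missed the threshold (-0.47, limma adjusted p = 0.258) and passed without the first TSN array of day 3 (-0.68, limma adjusted p = 0.0438). Between days 9 and 21 no member passed, against 35.1% of tested miRNAs, while 1 was under 0.05 before adjustment (miR-145a-5p, 0.58, SE 0.240, limma adjusted p = 0.0670, again from TSN arrays alone). Without the fourth TSN array of day 21 that difference was 0.79 (limma adjusted p = 0.00380).

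Days within an arm gave the comparisons that lie on 1 slide. TSN days 9 and 21 shared a slide, and there miR-145a-5p was higher at day 21 by 0.58 (SE 0.169, limma adjusted p = 0.00937), with 3 of 4 day 21 arrays above all day 9 arrays and all 8 arrays well above background. Of the 4 members it alone was called, where 43.3% of tested miRNAs were. The change held without each single array (limma adjusted p up to 0.0430) and missed the threshold on 9 of 13 other settings, among them quantile normalization (0.28, limma adjusted p = 0.191) and the authors' values (0.14, limma adjusted p = 0.277). miR-126a-3p was 0.46 higher at day 21 than at day 9 with no overlap of the 4 arrays of each (SE 0.184, limma adjusted p = 0.0511), and miR-143-3p was 0.58 higher (SE 0.324, limma adjusted p = 0.153) with 3 of 4 arrays above. miR-126a-5p differed by 0.35 (SE 0.230, limma adjusted p = 0.223).

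Against TSN day 3, on another slide, miR-145a-5p was higher at day 21 by 0.96 (SE 0.169, limma adjusted p = 0.00109), 1 of 4 members where 7.03% of tested miRNAs passed. Between TSN days 9 and 3 no member passed by limma, against 36.7% of tested miRNAs, and 1 was under 0.05 before adjustment (miR-145a-5p, 0.38, limma adjusted p = 0.0851). Without the first TSN array of day 3, miR-126a-3p did pass (-0.59, limma adjusted p = 0.00603). In vehicle serum, days 9 and 3 shared a slide. There miR-126a-3p was higher at day 9 on 4 of 4 arrays, by 0.38 (SE 0.184, limma adjusted p = 0.180). It was the 1 member under 0.05 before adjustment, and none passed where 14.1% of tested miRNAs did.

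miR-126a-3p was also higher in vehicle serum at day 21 than at day 3, by 0.55 with no overlap (SE 0.184, limma adjusted p = 0.0349), the 1 member called where 22.9% of tested miRNAs were. Those groups lay on different slides, and the call was lost on 8 of 14 other settings (0.45 with limma adjusted p = 0.0640 under quantile normalization, 0.0568 with the replicate block). It was also lost without replicate 2 or 4 of either group (changes of 0.46 to 0.55, limma adjusted p up to 0.109). Control days 21 and 9 gave no call among the members and 0.454% over all tested, and no member had an unadjusted p under 0.05 there. Ordered by mean level, miR-126a-3p ran from control day 21 (-1.82) through control day 9 (-1.99), TSN day 21 (-2.35), control day 3 (-2.38) and TSN day 3 (-2.44) to TSN day 9 (-2.80). For miR-143-3p the order ran from TSN day 21 (-3.24) through TSN day 9 (-3.82) and TSN day 3 (-3.86) to the control groups (-3.98 to -4.23), and for miR-145a-5p from TSN day 21 (-4.96) through TSN day 9 (-5.53) and TSN day 3 (-5.91) to the floor. Of the neighbours in the order of miR-126a-3p that were compared, control days 21 and 9 differed by 0.17 and TSN day 3 and control day 3 by -0.06, neither beyond its error, and TSN days 9 and 3 by -0.37 (limma adjusted p = 0.129).

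A difference between 2 members on one array does not move with that array's scaling factor, as long as neither value is at the floor. The difference miR-126a-3p minus miR-126a-5p at days 3, 9 and 21 averaged 3.26 ± 0.161, 3.19 ± 0.0863 and 3.29 ± 0.156 in TSN serum, against 2.63 ± 0.388, 2.73 ± 0.366 and 3.08 ± 0.279 in control groups (SD, n = 4 each). Over the 12 TSN arrays it lay between 3.11 and 3.47, so both strands moved nearly together there. The lowest of these values came from the first TSN array of day 3, where miR-126a-5p was at the floor. On 5 other settings the difference between arms ranged from -0.09 to 0.79 at day 3, from -0.53 to 0.46 at day 9 and from -0.24 to 0.39 at day 21. Against control it was larger by 0.63 with no overlap at day 3 (exact two-sided permutation p = 0.0286, adjusted p = 0.171 over 6 tests), by 0.46 at day 9 (exact p = 0.114) and by 0.21 at day 21 (exact p = 0.286). No test of this difference passed after adjustment, and its control side rests on 5p values mostly not above background.

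The difference miR-143-3p minus miR-145a-5p was 1.71 ± 0.113 in TSN at day 21, against 2.14 ± 0.319 in control (exact p = 0.0571, adjusted p = 0.171). At day 9 it was 1.71 ± 0.300 in TSN and 2.23 ± 0.518 in control (exact p = 0.200), and at day 3 2.05 ± 0.526 in TSN and 1.97 ± 0.386 in control (exact p = 0.83). With every control value of miR-145a-5p at the floor, the control differences only restate the scaled miR-143-3p and do move with the scaling. On 5 other settings the day 9 difference ranged from -1.52 to 0.03.

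A further difference, miR-143-3p minus miR-126a-3p, was added after the values were seen. It takes the endothelial from the smooth muscle miRNA on each array and at days 3, 9 and 21 averaged -1.43, -1.02 and -0.90 in TSN serum, against -1.86, -1.99 and -2.24 in control groups. The TSN value was higher by 0.43 at day 3 (exact p = 0.0571), by 0.97 at day 9 and by 1.34 at day 21 (exact p = 0.0286 at both, the smallest possible, adjusted p = 0.0857 over 9 tests). At days 9 and 21 the 4 arrays of each group did not overlap. On 5 other settings the difference between arms ranged from -0.45 to 0.74 at day 3, from -0.23 to 1.09 at day 9 and from 0.0922 to 1.35 at day 21, each lowest with normexp. Leaving out miRNAs not measured on every array removes this difference, since miR-143-3p was measured on 1 or 2 of 4 control arrays at these days.

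**Figure D4:**
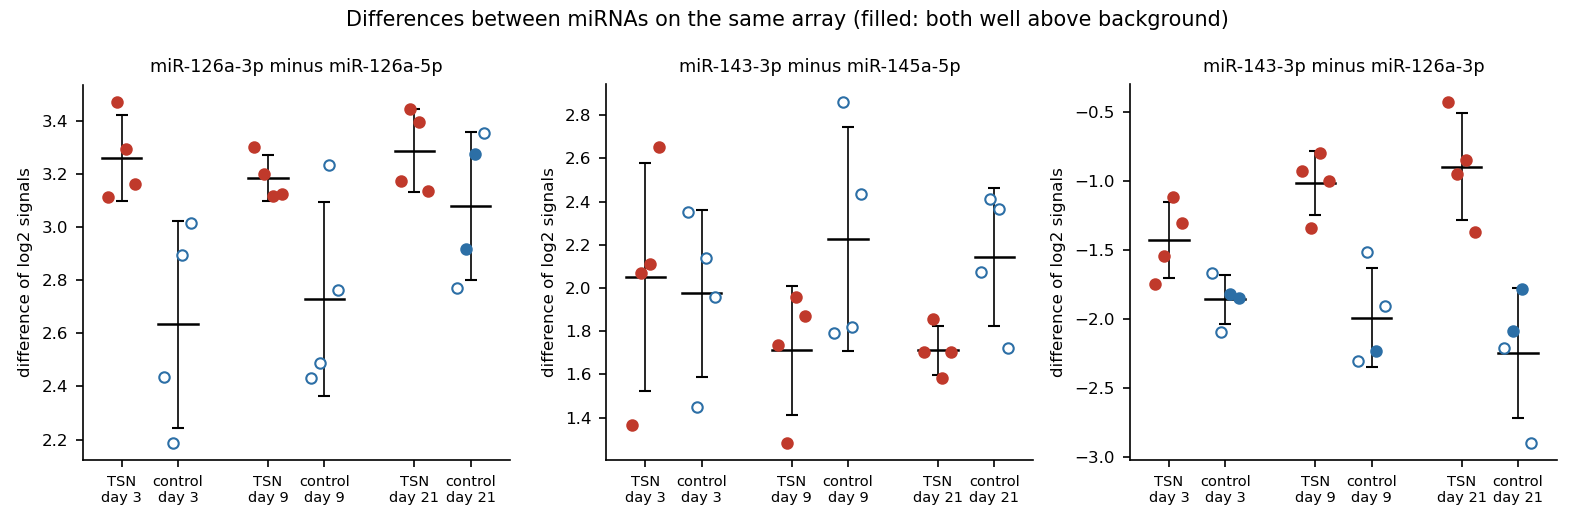
Differences of log2 signal between 2 miRNAs of one array, 1 point per array, with TSN in red and control in blue. Bars give the mean and SD of 4 arrays, and filled points had both miRNAs well above background; miR-143-3p minus miR-126a-3p is higher in TSN without overlap at days 9 and 21.

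With group means removed, the scaled signals of the members moved together from array to array to differing degrees. How far other pairs of miRNAs did so within TSN arrays was not computed. The first TSN array of day 3 was the lowest of its group for all 4 members. Within the 12 TSN arrays, where all 4 were measured, Pearson's r was 0.90 between the miR-126a strands, 0.85 between miR-126a-3p and miR-143-3p, and 0.74 between miR-143-3p and miR-145a-5p. It was 0.35 between miR-126a-5p and miR-145a-5p and 0.50 between miR-126a-3p and miR-145a-5p. These arrays share library brightness, and unscaled miR-126a-3p followed brightness with a slope of 0.29 on the log2 scale over TSN arrays and 0.95 over control arrays. The slopes were 0.41 and 1.02 for miR-143-3p, and 0.56 and 0.71 for miR-126a-5p, TSN arrays first in each pair. For miR-145a-5p the slope was 0.62 on TSN arrays and was not computed on control arrays, 5 of which read 0 or less.

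The miRNAs most like each member over all 24 arrays were drawn from the 152 measured on every array, with the members left out. For miR-126a-3p these were miR-709 (r = 0.76), miR-142a-3p (0.73) and miR-5128 (0.73), and with group means removed r was 0.28, 0.34 and 0.64. For miR-126a-5p they were miR-3620-3p, miR-7080-3p and miR-7084-5p (r of 0.87, 0.87 and 0.86, and 0.63, 0.60 and 0.40 within groups). For miR-143-3p they were miR-3473b, miR-3473e and miR-494-3p (0.59, 0.54 and 0.51, and 0.75, 0.69 and 0.03 within groups). For miR-145a-5p they were miR-6366, miR-2137 and miR-494-3p (0.82, 0.78 and 0.75, and 0.35, 0.25 and -0.23 within groups). Both smooth muscle miRNAs shared miR-494-3p, with these last values within groups. All 12 control values of miR-145a-5p lay at the floor. Its r over 24 arrays therefore includes the step from that floor to TSN arrays, and its control arrays vary by nothing within groups. On control arrays miR-126a-5p and miR-143-3p were well above background on 2 and 5 of 12, so their r also rests partly on unmeasured values.

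Other miRNAs listed as endothelial did not follow one direction. Of 13 listed, 10 were tested, and besides the miR-126b entries miR-151-3p was left out. At day 3, 2 of 10 were higher and 2 lower, where 29.3% of all tested miRNAs were higher and 18.6% lower, with a median change of 0.14 against 0.10 over all tested. At day 9, 3 were higher and 5 lower, where 27.7% of all tested were higher and 34.5% lower (median -0.23 against -0.04). At day 21, 1 was higher and 5 lower, where 23.1% of all tested were higher and 21.8% lower (median -0.38 against 0.01). Both miR-126a strands are among those counts.

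The lowest of the list at day 21 were miR-221-3p and miR-222-3p, neighbours on chromosome X (chrX:19146307-19146329 and chrX:19146901-19146923, minus strand) with a common seed, known for restraining endothelial cell growth. Their sequences are shown because they share the seed in capitals.
mmu-miR-221-3p: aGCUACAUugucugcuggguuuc
mmu-miR-222-3p: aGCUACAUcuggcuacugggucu
miR-222-3p, measured on all 4 arrays of each group, fell at all 3 days, with changes of -1.23, -1.78 and -1.92 (SE 0.158 each, limma adjusted p of 2.10e-06, 1.23e-08 and 1.39e-08). miR-221-3p fell by 1.49 at day 21 (SE 0.179, limma adjusted p = 1.58e-06). Without scaling both turned higher at day 21 (0.63 for miR-222-3p and 1.06 for miR-221-3p), which relative to the shift of the median miRNA was -1.43 and -0.996. On labelling spike-ins miR-222-3p read -0.12 and -0.0403 at days 3 and 9, and on the 75th percentile of all probes -0.51 and -0.39, and neither scale called it at these days. The median change of all tested miRNAs was 1.01 and 1.18 on the first of these scales and 0.61 and 0.77 on the second. miR-210-3p, induced by low oxygen in many cells, rose at day 3 and was at least 1.08-fold higher there, since no control array measured it. At day 9 its bound was below 1, so no fold is given.

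miR-10a-5p and miR-10b-5p, known for setting the inflammatory state of endothelium, share a seed and differ at 1 base (U12A, miR-10a-5p first, counted from the 5′ end). They lie at chr11:96317186-96317208 and chr2:74726074-74726096, both on the plus strand, and were chosen here after their values were seen.
mmu-miR-10a-5p: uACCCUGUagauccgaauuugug
mmu-miR-10b-5p: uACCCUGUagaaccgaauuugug
Against the fall of miR-126a-3p at day 9, they rose by 0.71 (SE 0.282, limma adjusted p = 0.0357) and 0.81 (SE 0.273, limma adjusted p = 0.0150), with 2 and 3 of 4 control arrays measured. At day 21 they read -0.14 and -0.26, and neither passed. Their changes were not followed on other settings or without single arrays.

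**Figure D5:**
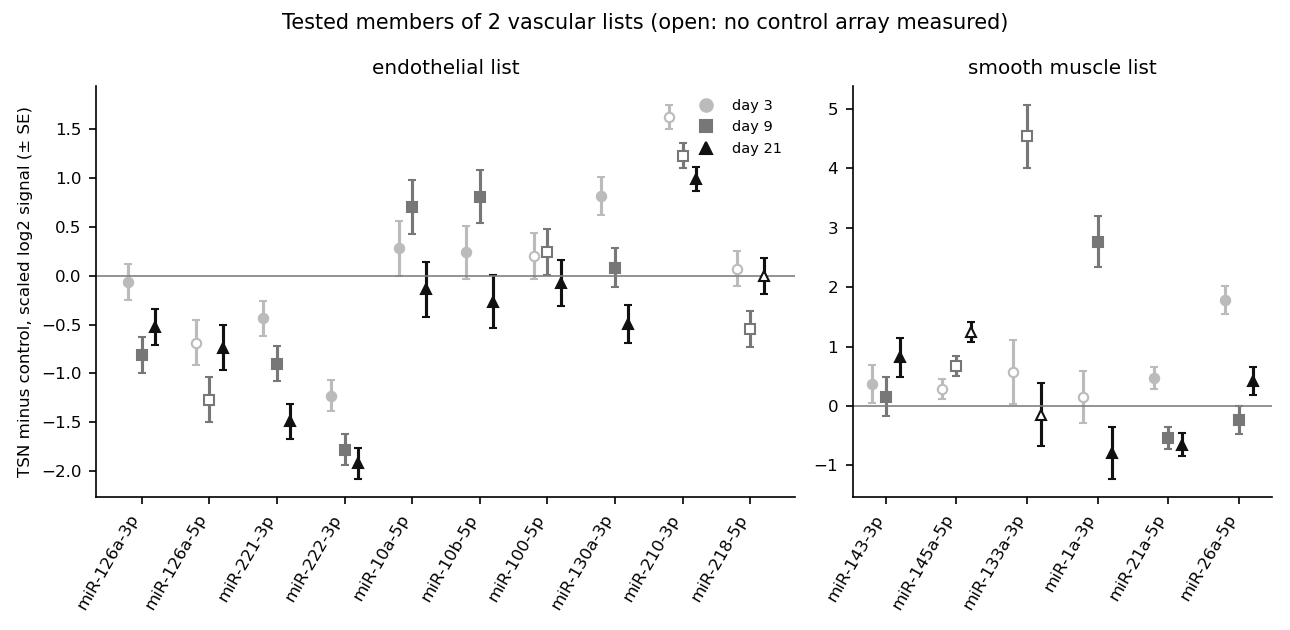
Change (TSN minus control, scaled log2 signal, SE bars) of the tested miRNAs of the endothelial and smooth muscle lists at days 3, 9 and 21. Open symbols had no measured control array; miR-221-3p and miR-222-3p lie lowest in the endothelial list at day 21, and miR-133a-3p and miR-1a-3p stand highest at day 9.

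Of 10 miRNAs listed for smooth muscle, 6 were tested. Their counts were 2 higher and 0 lower at day 3 (median change 0.42 against 0.10 over all tested), 3 higher and 1 lower at day 9 (0.42 against -0.04) and 2 higher and 1 lower at day 21 (0.14 against 0.01). Over all tested miRNAs 29.3%, 27.7% and 23.1% were higher and 18.6%, 34.5% and 21.8% lower at these days. miR-133a-3p and miR-1a-3p, which striated muscle also makes in bulk, led at day 9. miR-133a-3p was at least 6.35-fold higher (change 4.54, SE 0.533, limma adjusted p = 5.55e-07), and miR-1a-3p rose by 2.77 (SE 0.435, limma adjusted p = 2.06e-05) with 1 of 4 control arrays measured. At day 21, when miR-143-3p and miR-145a-5p were called, these read -0.15 and -0.79 and did not pass. At day 3, miR-26a-5p rose by 1.79 (SE 0.234, limma adjusted p = 2.67e-06) and miR-21a-5p by 0.47 (SE 0.187, limma adjusted p = 0.0437), a change that reads -0.05 in the authors' values, and at day 21 miR-21a-5p fell by 0.65 (SE 0.187, limma adjusted p = 0.00829). miR-26a-5p and miR-21a-5p are made by many cell types.

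The hairpin partners and paralogs gave no second reading of the members. Of 9 such entries, the 5 that are not members (miR-126b-3p, miR-126b-5p, miR-143-5p, miR-145a-3p and miR-145b) were well above background on 0 of 24 arrays.

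Markers of other cells in serum moved beside the members. The summed scaled level of 7 platelet miRNAs, among them miR-126a-3p, at days 3, 9 and 21 ranged from 9.11 to 14.0, 9.46 to 11.3 and 8.05 to 11.2 in TSN serum, against 6.76 to 9.89, 11.9 to 16.2 and 10.1 to 19.2 in control groups. Of these 7, 3 were higher at day 3 (29.3% of all tested), 3 lower at day 9 (34.5%) and 4 lower at day 21 (21.8%). Of 6 tested leukocyte miRNAs, 1 was higher and 2 lower at day 3, 3 lower at day 9 and 4 lower at day 21. Over all tested miRNAs 29.3% were higher and 18.6% lower at day 3, and 34.5% and 21.8% were lower at days 9 and 21. The summed leukocyte level ranged from 2.54 to 3.14, 1.84 to 2.32 and 2.08 to 3.08 in TSN groups, against 2.18 to 2.47, 3.19 to 3.86 and 3.33 to 7.24 in control groups. The lists share miR-223-3p, and miR-126a-3p is itself one of the platelet list's lower calls. The part of platelets and leukocytes in its change was not tested.

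Red cell miRNAs summed to 28.3 to 48.0, 74.97 to 94.6 and 41.6 to 62.9 in TSN groups, against 33.2 to 57.0, 33.2 to 65.8 and 53.7 to 95.02 in control groups, with no overlap at day 9. Striated muscle miRNAs summed to 0.0873 to 0.185, 0.473 to 4.88 and 0.0529 to 0.133 in TSN groups, against 0.0707 to 0.0950, 0.0529 to 0.122 and 0.0498 to 0.170 in control groups. All 3 tested members were called higher at day 9, where 27.7% of all tested miRNAs were. The others, miR-206-3p, miR-208a-3p, miR-208b-3p and miR-499-5p, were well above background on no array. Hepatocyte miRNAs summed to 0.482 to 1.02, 0.512 to 4.90 and 0.448 to 0.616 in TSN groups, against 0.313 to 0.485, 0.287 to 0.448 and 0.399 to 0.929 in control groups, and miR-122-5p was well above background on 21 of 24 arrays. The part of these cells in the member changes was not tested.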

How the data were processed

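The deposited scanner files hold intensity per spot. Per the file headers, Feature Extraction had removed background and detrended each array in space, with no scaling between arrays. The deposited table of the authors' processed values was read as log2, since its values rose with the log2 of the scanner signal; its scaling and centring are unknown. The members, lists and tests were chosen with earlier results of these data known.

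After control spots and outlier spots were dropped, the spots of each probe were averaged. Signals were divided by the 75th percentile of 261 probes well above background on all 24 arrays, floored at 0.0135 and taken to log2. A probe was well above background where over a 0.5 share of its spots was, and the brightest probe stood for a miRNA. One two-sided limma fit (limma 3.58.1, R 4.3.3) of 6 groups was adjusted by Benjamini-Hochberg at 0.05 over 441 miRNAs in each of 12 comparisons. Where a group had no array well above background, a fold is the brighter mean over the higher of the lowest readable signal and the probe's own, and is given only above 1. Exact permutation tests used 70 allocations of 8 arrays. The number of arrays limits precision. The fit was tested on simulated data.

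Named miRNAs were the members, the 3 most like each, and the 2 with the smallest adjusted p of the endothelial and smooth muscle lists in each TSN comparison; miR-10a-5p and miR-10b-5p were named outside this rule, after their values were seen, and other lists are given as counts. Arrays of equal replicate number deviated together in 4 of 4 pairs for day 9, TSN with control (r of 0.204 to 0.357); the number is the column on the slide. No other comparison had all 4 pairs over an r of 0.1. Control day 21 against day 9 had 3 (r up to 0.470), and TSN against control at day 21 had 2 (r up to 0.430). Sequences are from RefSeq (GRCm38.p6) and the deposited probe column. Alternatives were other scalings, backgrounds, probe rules, floors and filters, fits of 2 groups, single arrays left out and a replicate block.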

Additional observations from a re-analysis of the deposited data

Results flagged for a closer look

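Among the 4 arrays of TSN at day 3, the scaled log2 signal of miR-143-3p on the first array (-4.84) stood far from the other 3 by Dixon's test, which marks about 1 in 20 groups by chance. The TSN effect on miR-126a-3p differed between days, being lower at day 9 than at day 3 by -0.75 (limma adjusted p = 0.0494), from changes of -0.81 at day 9 and -0.06 at day 3. That call was lost on 10 of 13 other settings, down to -0.0416 without scaling, and with the replicate block (limma adjusted p = 0.106). The same term for miR-145a-5p between days 21 and 3 was 0.96 (limma adjusted p = 0.0143), but with all control arrays at the floor it restates the difference between the TSN groups, and it was lost on 5 of 12 other settings.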

How the results depend on the processing

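The sign of the miR-126a changes differed between scalings, and the control arrays, on which 3 of the 4 members were mostly not well above background, limit every size. Each scaling had its own floor, so the values of those 3 members also depend on where dim control signals were floored. Values are changes at days 3, 9 and 21, TSN minus control, and where a change of sign or side is given its cause was not tested. Scaled to hybridisation spike-ins, miR-126a-3p read 2.87, 2.76 and 2.17, miR-126a-5p 1.30, 1.38 and 1.34, and miR-143-3p 2.92 and 3.34 at days 3 and 9, with miR-145a-5p at 0.99 at day 3. Scaled to labelling spike-ins, miR-126a-3p read 1.05, 0.93 and 0.29, miR-126a-5p 0.42, 0.47 and 0.0773, and miR-143-3p 1.48 and 1.90. Without scaling, miR-126a-3p read 2.79, 2.75 and 2.03, miR-126a-5p 1.17, 1.31 and 1.24, miR-143-3p 2.84 and 3.31, and miR-145a-5p 0.87 at day 3. The median change of all tested miRNAs was 2.31, 2.46 and 2.17 on hybridisation spike-ins and 1.01, 1.18 and 0.66 on labelling spike-ins. Without scaling it was 2.20, 2.42 and 2.07. On the 75th percentile of all probes, miR-126a-3p read 0.58 and -0.21 at days 9 and 21, miR-126a-5p 0.0291, 0.12 and -0.42, and miR-143-3p 1.08 and 1.55 at days 3 and 9. The median change of all tested miRNAs was 0.61, 0.77 and 0.19 on that scale. With normexp, miR-126a-3p read -0.87 at day 3, miR-143-3p -1.31, -1.67 and -0.84, and miR-145a-5p -1.55, -1.70 and -1.16.

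In the authors' values, the median change of all tested miRNAs was 0.29, 0.33 and 0.16. On that scale miR-126a-5p read 0.0339, 0.0418 and -0.13 and miR-145a-5p 0.56 at day 3, past the threshold. With total gene signal, miR-126a-5p read -0.0832, -0.25 and -0.14, miR-145a-5p 0.69 at day 9, and miR-126a-3p -0.38 and miR-143-3p 0.69 at day 21, none past it. At the mean over probes, miR-126a-5p at day 3 (-0.37) and miR-126a-3p (-0.44) and miR-143-3p (0.85) at day 21 missed it, as did miR-126a-3p (-0.41) and miR-143-3p (0.78) at day 21 under quantile normalization. With no filter, miR-126a-3p (-0.53), miR-126a-5p (-0.73) and miR-143-3p (0.82) missed it at day 21, more miRNAs being tested. Fitted as 2 groups alone, miR-126a-5p at day 3 (-0.69) and miR-143-3p at day 21 (0.82) missed it. At 0.5 of the floor, miR-145a-5p passed at day 3 (1.198).

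At day 21, TSN and control arrays of equal replicate number paired in part, with r of -0.108 to 0.430. The replicate block left miR-126a-3p (-0.53, limma adjusted p = 0.0621) and miR-143-3p (0.82, limma adjusted p = 0.0911) at day 21 short of the threshold, and changed no other TSN-against-control call of a member. It also lost the miR-126a-3p calls for the TSN effect at day 9 minus day 3 (limma adjusted p = 0.106) and for control day 21 against day 3 (limma adjusted p = 0.0568). Without single arrays, day 21 values ran from -0.66 to -0.44 for miR-126a-3p, from -0.88 to -0.61 for miR-126a-5p and from 0.64 to 1.04 for miR-143-3p, and day 3 values of miR-126a-5p from -0.82 to -0.52. All day 9 calls and the day 21 call of miR-145a-5p (1.07 to 1.47) held without each array.

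Calls over all tested miRNAs were 211, 274 and 198. They were 401 and 417 at days 3 and 21 on hybridisation spike-ins, 389 and 414 without scaling and 371 and 359 with normexp. On labelling spike-ins they were 323 at day 3. With no filter 1371 of 1881 miRNAs passed at day 3, 1234 of them lower. The median change on that setting was -1.8e-15, a rounding error between floored values, so 1371 is not a count of real changes. Among miRNAs measured on all 24 arrays the calls were 84, 109 and 70, fewer being tested. Of other named miRNAs, miR-222-3p turned to 1.70, 1.79 and 0.78 on hybridisation spike-ins and 1.63, 1.78 and 0.63 without scaling. At day 21 miR-221-3p read 1.21 and 1.06 and miR-21a-5p 2.05 and 1.90 on those settings, and miR-21a-5p 0.16 on labelling spike-ins. At day 3 miR-21a-5p read -0.0471 in the authors' values and -0.18 under quantile normalization. With normexp, miR-210-3p read -1.45 and -1.76 at days 3 and 9 and miR-1a-3p -0.37 at day 9. Between control days 21 and 9, miR-126a-5p read 0.55 on the 75th percentile of all probes, where the median of all tested miRNAs moved by 0.54.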
